A study of Mus musculus with 18 samples.

Results

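Genes that mark autonomic neurons, and the neural crest cells that give rise to them, were followed in bulk RNA-Seq of embryonic mouse lungs. They are *Phox2a*, *Hand2*, *Gata3*, *Tfap2b*, *Ret*, *Chrna3*, *Th* and *Dbh*, chosen by name and found by symbol, and they make up 8 of the 23420 genes listed in each of 3 tables. The 18 libraries came from 3 experiments, each with 3 control and 3 mutant libraries. In the *Vangl1/2* experiment, at E12.5 (days post coitum), controls were Vangl1-/- and mutants were Vangl1-/-; Vangl2-/-, so the *Vangl1* defect, a gene trap, was common to both groups, and *Vangl2* was removed throughout the embryo with Sox2-Cre. In the Dermo1 experiment, also at E12.5, controls were Wnt5af/+; Dermo1Cre and mutants Wnt5af/f; Dermo1Cre. In the Sox9 experiment, at E13.5, controls were Wnt5af/+; Sox9Cre and mutants Wnt5af/f; Sox9Cre, so the controls of both *Wnt5a* experiments also carried a Cre and lacked 1 functional *Wnt5a* copy wherever it acted. Dermo1-Cre acts in the mesenchyme. The study used Sox9-Cre for the lung epithelium, where it starts late, and *Sox9* is also known from early neural crest and cartilage. The number of embryos in a library is not given in the sources used here.

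None of the 8 genes passed an adjusted p of 0.05 in any experiment with limma or edgeR, and DESeq2 passed *Ret* and *Chrna3* in the Dermo1 experiment. DESeq2 gave none of the 8 an adjusted p in the *Vangl1/2* experiment, nor *Phox2a* or *Dbh* in the Dermo1 experiment. The smallest unadjusted p-values were those of *Ret*, the receptor of the neurotrophic ligand GDNF, and *Chrna3*, a nicotinic receptor subunit of ganglion neurons, in Dermo1 mutants. All 3 Dermo1 mutants lay above all 3 controls for *Ret*, at 1.68-fold on the log2(value + 1) scale, and the fitted difference of *Chrna3* was 3.37-fold. In the *Vangl1/2* mutants the widest difference was that of *Tfap2b*, at 2.77-fold with no overlap of the groups. The fitted values of all 8 genes in the Sox9 experiment lay below 0, and for *Dbh*, *Th* and *Tfap2b* a single control library stood far above the other 5. In bulk lungs, a change in the number of such neurons and a change in the RNA of each neuron cannot be told apart.

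Autonomic neurons of the lung arise from vagal neural crest cells that enter the foregut and then migrate onto the airways, where they settle as small ganglia beside the smooth muscle. Such crest cells depend on *Ret* signaling in the gut and on homeodomain factors such as *Phox2a*. Sympathetic neurons lie outside the lung, in chains beside the vertebrae, reach it by their axons, and make noradrenaline with the enzymes *Th* and *Dbh* under the control of *Phox2a*, *Hand2*, *Gata3* and *Tfap2b*. Several of these factors also work elsewhere, *Hand2* in the heart and limb and *Gata3* in T cells, ear and kidney.

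The promoters of the 2 enzyme genes are shown because homeodomain factors such as *Phox2a* bind ATTA, and because *Th* and *Dbh* varied together between libraries. Of the 8 genes, 7 had a promoter entry in RefSeq (GRCm38.p6). Each sequence is the 250 bases before the annotated start, read 5′ to 3′ on the strand of the gene. The *Dbh* promoter lies at chr2:27165257-27165506 on the plus strand and that of *Th* at chr7:142899996-142900245 on the minus strand. Capitals mark ATTA on either strand (TAAT when it is on the other strand) and, in *Th*, the palindrome TGACGTCA, known as the cyclic AMP response element.
Dbh: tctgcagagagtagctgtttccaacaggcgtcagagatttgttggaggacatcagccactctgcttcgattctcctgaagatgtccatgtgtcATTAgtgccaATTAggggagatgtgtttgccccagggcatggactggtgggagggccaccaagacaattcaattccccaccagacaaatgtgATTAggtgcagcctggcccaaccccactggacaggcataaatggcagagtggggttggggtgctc
Th: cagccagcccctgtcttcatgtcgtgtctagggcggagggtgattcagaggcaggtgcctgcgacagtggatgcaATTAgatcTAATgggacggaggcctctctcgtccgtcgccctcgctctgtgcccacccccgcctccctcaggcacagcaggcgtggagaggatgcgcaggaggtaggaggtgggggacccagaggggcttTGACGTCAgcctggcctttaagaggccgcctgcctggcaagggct
The *Dbh* promoter holds 3 copies of ATTA, with their first bases 157, 147 and 65 bases before the start. That of *Th* holds an ATTA at 175 and a TAAT at 167 bases, and its TGACGTCA begins 45 bases before the start. No capitalized match overlaps another. Across 32851 promoters of the same length, 30.8% hold at least 2 copies of ATTA on either strand, 17.3% hold at least 3, and 1.55% hold TGACGTCA. *Hand2* has 5 such copies and *Tfap2b* 6, while *Chrna3*, *Gata3* and *Phox2a* have none in this window. These matches describe letters and not bound sites.

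Between 15945393 and 19814346 reads fell on genes in a library, and the size factors ran from 0.952 to 1.07, so that a normalized count is worth close to 1 read. Lung markers were present in every library: the sum of 6 epithelial genes, *Nkx2-1* and *Sftpc* among them, lay between 11770 and 13705 normalized counts. In the *Vangl1/2* experiment *Vangl2* was 277, 406 and 334 in controls and 86.5, 79.8 and 89.6 in mutants, a log2 fold change of −1.96 ± 0.17 (SE), with a limma adjusted p of 0.0318. *Wnt5a* was 472, 430 and 489 in Dermo1 controls against 317, 436 and 230 in mutants, with a limma adjusted p of 0.406. These groups overlapped, since mutant 2 was above control 2. In the Sox9 libraries *Wnt5a* was 473, 453 and 426 against 442, 362 and 448, which overlapped as well. Some libraries stood apart from their group. *Vangl1/2* control 2 fell among the mutants on the first principal component (17.0, with mutants from 15.1 to 21.5 and controls 1 and 3 at −30.1 and −44.7). Sox9 mutant 1, at −18.5, lay within its controls (−19.5 to −5.42).

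The 8 genes were low or moderate in these lungs. Per kilobase of exon, control means ordered *Hand2* first, *Ret* second and *Tfap2b* last in each experiment. *Hand2* stood at 41.0 ± 14.6 normalized counts per kilobase (SD, n = 3) in *Vangl1/2* controls, 50.7 ± 39.2 in Dermo1 controls and 68.2 ± 32.0 in Sox9 controls. *Ret* stood at 20.8 ± 7.66, 18.01 ± 1.595 and 26.9 ± 4.27. The ranges of *Hand2* and *Ret* over controls overlapped in the Dermo1 experiment (16.6 to 93.6 and 16.2 to 19.0) and not in the others. *Tfap2b* averaged 1.12, 1.47 and 4.17 per kilobase, and the genes between it and *Ret* changed places from experiment to experiment. A test needed 10 normalized counts in at least 3 of 6 libraries. *Th* fell under this limit in all 3 experiments and *Tfap2b* in both *Wnt5a* experiments, so 7, 6 and 6 of the 8 genes were tested.

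**Figure D1:**
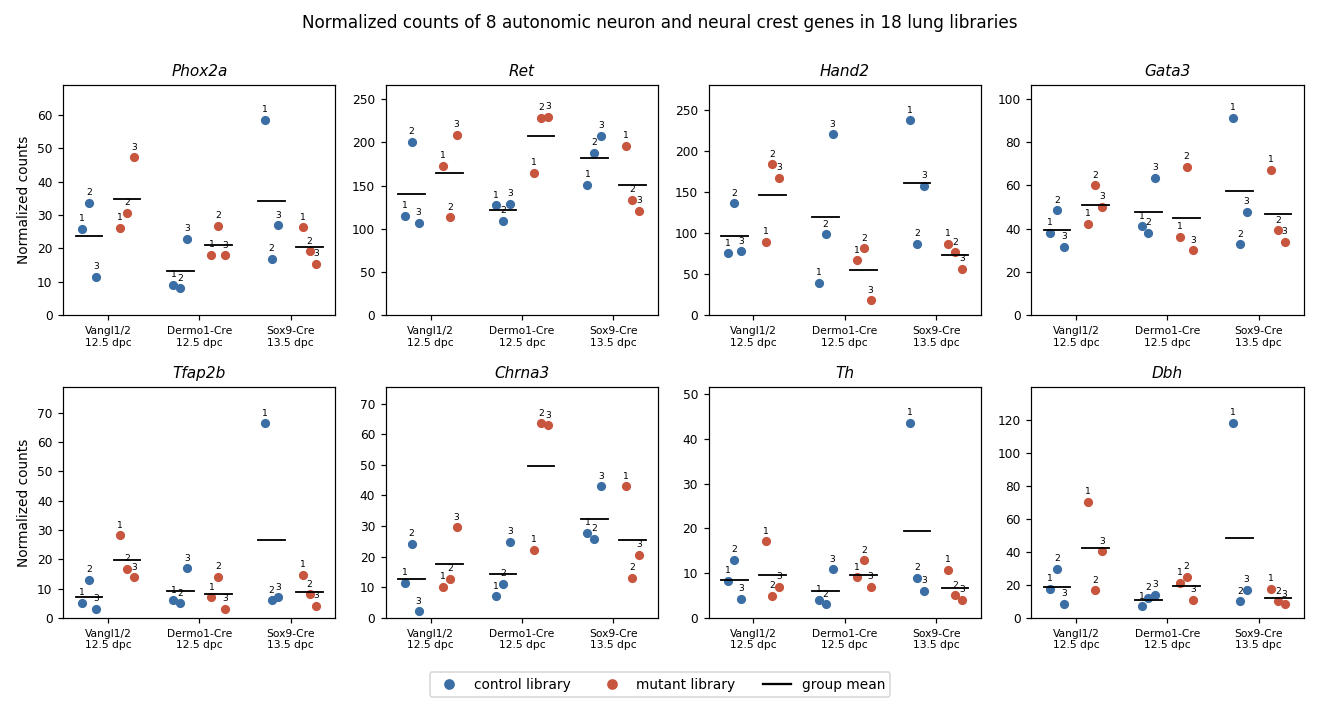
Normalized counts (y axis, linear, from 0) of each gene in the 18 libraries, grouped on the x axis by experiment, with blue points for controls, red points for mutants, the replicate number above each point and a bar at the group mean. For Ret the 3 Dermo1 mutants (164, 228 and 230) sit above the controls (109 to 129), and Sox9 control 1 is far above the other 5 Sox9 libraries for Th, Dbh and Tfap2b.

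*Phox2a* (chr7:101818313-101822726, plus strand, mm10) encodes a homeodomain factor of noradrenergic and visceral neurons. In *Vangl1/2* libraries it was 25.8, 33.5 and 11.6 normalized counts in controls and 26.2, 30.5 and 47.3 in mutants. In the Dermo1 experiment controls had 9.02, 8.03 and 22.8 and mutants 18.2, 26.8 and 17.97. The groups overlapped in both, and the log2 fold changes of 0.61 ± 0.42 and 0.74 ± 0.41 (SE) did not pass limma's test (adjusted p = 0.390 and 0.566). The first was 0.18 without *Vangl1/2* control 3. Sox9 controls had 58.5, 16.9 and 26.9 and mutants 26.4, 19.1 and 15.4, also overlapping. That difference of −0.58 ± 0.43 was −0.10 without control 1. The exons of *Phox2a* share 95 bases with *Inppl1* on the opposite strand, a gene with 2146 to 3516 normalized counts.

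*Hand2* (chr8:57320983-57324633, plus strand) encodes a basic helix-loop-helix factor of sympathetic neurons, heart and limb. It was 75.4, 136 and 77.8 in *Vangl1/2* controls and 89.6, 183 and 167 in mutants. Dermo1 controls had 39.1, 98.4 and 220 and mutants 66.6, 81.4 and 17.97, so the groups overlapped, with the highest value in control 3 and the lowest in mutant 3. Sox9 controls had 237, 86.6 and 158 and mutants 86.9, 76.4 and 56.4, where only mutant 1 reached the lowest control. The log2 fold changes were 0.59 ± 0.33, −1.02 ± 0.65 and −1.03 ± 0.33 (SE), with limma adjusted p-values of 0.305, 0.616 and 0.9999. Without *Vangl1/2* control 2 the first was 0.86 with a limma adjusted p of 0.0286, in a fit that passed 6183 of 14303 genes. The second was −0.36 without Dermo1 mutant 3, −0.42 without control 3 and −1.65 without control 1. *Hand2* shares 461 exon bases with the antisense gene *Hand2os1*.

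Heart muscle genes are given beside *Hand2* as genes of another tissue in which it is active. The sum of 12 cardiomyocyte genes, such as *Myh6* and *Tnnt2*, was 1411, 7087 and 21542 in Dermo1 controls and 3090, 4477 and 914 in mutants. There the lowest sum and the lowest *Hand2* were both in mutant 3, and the highest of each in control 3. *Vangl1/2* sums were 1778 to 5863 in controls and 615 to 8131 in mutants. The sums in the Sox9 experiment were 5609, 8910 and 19460 in controls and 6177, 3010 and 1065 in mutants, and mutant 3 again had the lowest *Hand2*. At an unadjusted p of 0.05 none of the 11 cardiomyocyte genes tested was lower in Dermo1 mutants, against 4.76% of all genes. In Sox9 mutants 9 of 12 were lower, against 2.81%. None of the 12 was at 0 in all 6 libraries of an experiment. Over 18 libraries the correlation of *Hand2* with this sum was r = 0.72 (Spearman's rho 0.69), each experiment centred on its own mean. It was 0.26, 0.98 and 0.62 within the *Vangl1/2*, Dermo1 and Sox9 experiments, and 0.59 without the 2 libraries farthest from the median sum. The part of cardiac tissue in the *Hand2* values was not tested.

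*Gata3* (chr2:9857078-9890034, minus strand) encodes a zinc finger factor needed for sympathetic neurons. It was 38.2, 48.5 and 31.5 in *Vangl1/2* controls and 42.3, 60.1 and 50.2 in mutants. It was 41.1, 38.1 and 63.4 in Dermo1 controls and 36.3, 68.5 and 30.0 in mutants. Sox9 controls had 91.2, 32.9 and 47.9 and mutants 67.3, 39.2 and 33.8. The groups overlapped each time, with log2 fold changes of 0.37 ± 0.24, −0.13 ± 0.32 and −0.22 ± 0.39 (SE) and limma adjusted p-values of 0.375, 0.905 and 0.9999. The last 2 turned positive without 1 library, 0.09 without Dermo1 control 3, 0.10 without Dermo1 mutant 3 and 0.17 without Sox9 control 1. Its exons share 77 bases with *9230102O04Rik* and 155 with *Gm13256*. A list of 8 T cell and thymus genes, from another place where *Gata3* is used, summed to 138 to 249 normalized counts in 16 libraries. It reached 313 in Sox9 control 1 and 301.2 in Dermo1 control 3, where *Gata3* was 91.2 and 63.4. Dermo1 mutant 2, with the highest *Gata3* of its experiment at 68.5, had a sum of 148, and Sox9 mutant 1, at 67.3, had 167. The part of such cells in the *Gata3* values was not tested. Of these 8 genes *Cd3e* and *Cd3g* were at 0 in all 6 *Vangl1/2* libraries. Chosen after their values were seen, *Foxn1* was 21.8 in Dermo1 control 3 and 32.7 in Sox9 control 1. It was 0 to 1.05 in the other 16 libraries. *Cd3g* was 33.7 and 25.8 in the same libraries and at most 1.995 elsewhere. *Lck* (85.3 to 172) and *Ccl25* (41.7 to 82.2) were present in all 18 libraries.

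*Tfap2b* (chr1:19208914-19238576, plus strand) encodes an AP-2 factor of neural crest and sympathetic neurons. Its *Vangl1/2* controls had 5.16, 13.0 and 3.15 normalized counts and its mutants 28.2, 16.8 and 13.8. The groups did not overlap, though mutant 3 exceeded control 2 by less than 1 count. The log2 fold change was 1.47 ± 0.52 (SE, n = 3 each), with a limma adjusted p of 0.233. Without control 2 it was 1.96 with a limma adjusted p of 0.00711, in a fit that passed 6183 genes in all. Dermo1 libraries lay between 2.996 and 16.8 in both groups. Sox9 control 1 had 66.4 and the other 5 libraries 4.10 to 14.6.

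*Ret* (chr6:118151745-118197718, minus strand) encodes the receptor tyrosine kinase through which GDNF guides enteric and other crest cells. In the Dermo1 experiment controls had 127, 109 and 129 normalized counts and mutants 164, 228 and 230. The groups did not overlap, and the log2 fold change was 0.75 ± 0.15 (SE, n = 3 each), with a limma adjusted p of 0.189. DESeq2 on the recovered reads gave *Ret* an adjusted p of 0.0101. Without mutant 1, the lowest of the mutants, limma gave 0.0269, in a fit that passed 54 genes. Both are under 0.05. The adjusted p of edgeR was 0.168, and limma without any other single library gave 0.158 to 0.693. *Vangl1/2* libraries had *Ret* at 115, 200 and 107 in controls and 173, 113 and 209 in mutants. Sox9 libraries had 151, 188 and 207 against 196, 134 and 121. Both of these overlapped, at log2 fold changes of 0.24 ± 0.30 and −0.29 ± 0.20 (SE).

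*Chrna3* (chr9:55010111-55026562, minus strand) encodes the alpha 3 subunit of the nicotinic receptor that carries transmission in autonomic ganglia. Dermo1 controls had 7.01, 11.04 and 24.8 normalized counts and mutants 22.2, 63.5 and 62.9. Control 3 was above mutant 1, and the other 2 mutants were far above every control. The log2 fold change was 1.75 ± 0.50 (SE, n = 3 each), with a limma adjusted p of 0.324, while DESeq2 on recovered reads gave *Chrna3* an adjusted p of 0.0449. *Vangl1/2* controls had 11.4, 24.2 and 2.10 and mutants 10.1, 12.8 and 29.5, a log2 fold change of 0.76 ± 0.76 that was −0.08 without control 3. Sox9 controls had 27.8, 25.9 and 42.9 and mutants 42.9, 13.1 and 20.502.

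*Th* (chr7:142892752-142931128, minus strand) encodes tyrosine hydroxylase, the rate-limiting enzyme of catecholamine synthesis. It was 8.26, 13.0 and 4.20 in *Vangl1/2* controls and 17.1, 4.93 and 6.89 in mutants. Dermo1 controls had 4.01, 3.01 and 10.9 and mutants 9.08, 12.9 and 6.99. Sox9 control 1 had 43.6 normalized counts, controls 2 and 3 had 8.96 and 5.99, and mutants had 10.7, 5.03 and 4.10. Fits without a filter gave log2 fold changes of 0.11 ± 0.53, 0.74 ± 0.48 and −1.03 ± 0.68 (SE), with limma adjusted p-values of 0.928, 0.690 and 0.9999. All but 2 of the 18 *Th* values lay between 3.01 and 13.0 normalized counts, so few reads stand behind them.

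*Dbh* (chr2:27165233-27183200, plus strand) encodes dopamine beta-hydroxylase, which turns dopamine into noradrenaline. *Vangl1/2* controls had 17.6, 29.8 and 8.41 normalized counts and mutants 70.4, 16.8 and 40.4. Dermo1 controls had 7.01, 12.04 and 13.9 and mutants 21.2, 24.8 and 10.98. Mutants 1 and 3 of the first and mutants 1 and 2 of the second were above every control of their experiment, and the remaining mutant of each lay among the controls. The log2 fold changes were 1.10 ± 0.58 and 0.71 ± 0.40 (SE), with limma adjusted p-values of 0.294 and 0.571. Without *Vangl1/2* control 2 the *Dbh* value was 1.503 with a limma adjusted p of 0.0472, in the fit that passed 6183 of 14303 genes. Sox9 control 1 had 118 and controls 2 and 3 had 9.96 and 17.0, against 17.6, 10.1 and 8.20 in mutants. The log2 fold change of −1.21 ± 0.79 there was −0.18 without control 1.

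**Figure D2:**
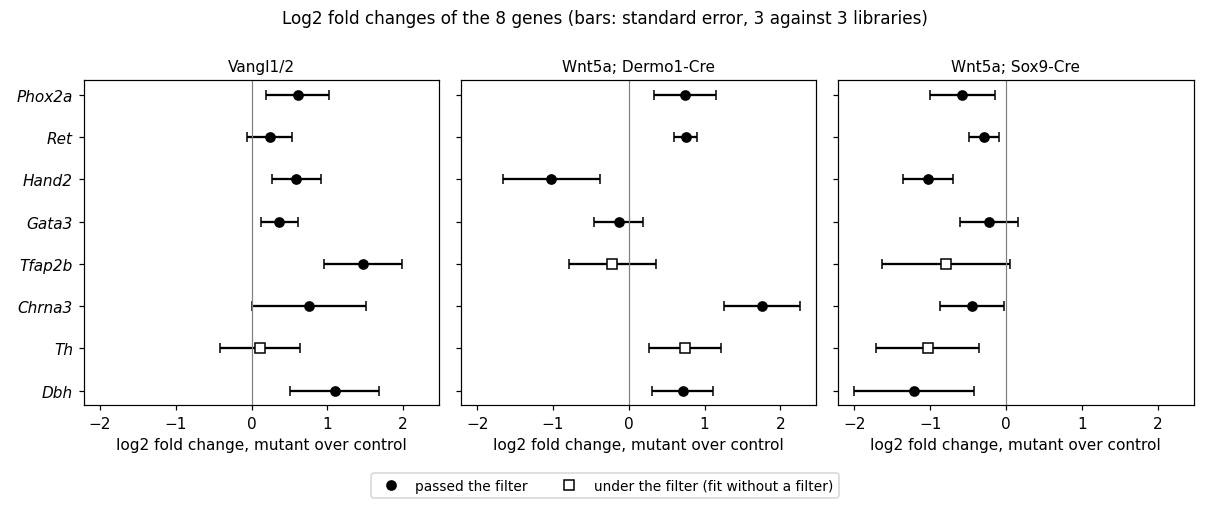
Log2 fold change of mutant over control (x axis) for each gene (y axis) in the 3 experiments, with bars of 1 standard error; filled circles are tested genes and open squares are genes under the filter, fitted without it. Chrna3 (1.75) and Ret (0.75) in the Dermo1 panel lie farthest from 0 relative to their bars, and all 8 values of the Sox9 panel are below 0.

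Counted over the *Vangl1/2* experiment, none of the 7 tested genes passed an adjusted p of 0.05 in limma, where 0.00699% of the 14303 genes tested passed. At an unadjusted p of 0.05, 1 gene (*Tfap2b*) was higher and none was lower, against 12% and 8.56% of all genes. *Tfap2b* was also the 1 gene whose mutants were all above its controls, against 13.6% of all genes. All 7 log2 fold changes were above 0, as were 48.8% of those of all genes, and their median was 0.61, beside −0.01 over all genes. Control 3 held the lowest value of 7 of the 8 genes. The 12 pan-neuronal genes, such as *Tubb3* and *Elavl4*, had 3 members higher at an unadjusted p of 0.05, and their sums were 1612 to 1752 in controls and 1649 to 2419 in mutants.

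In the Dermo1 experiment none of the 6 tested genes passed an adjusted p of 0.05 in limma, where 0.014% of 14277 genes passed, and DESeq2 passed *Ret* and *Chrna3* among 101 genes. At an unadjusted p of 0.05, *Ret* and *Chrna3* were higher and none was lower, against 5.42% and 4.76% of all genes. Mutants and controls did not overlap for 1 gene (*Ret*), against 7.65% of all genes in that direction. Of the 6 log2 fold changes 4 were above 0, against 50.3% over all genes, and their median was 0.73, beside 0.00071. Mutant 2 held the highest value of 5 of the 8 genes, control 3 of 2 and mutant 3 of 1. The *Wnt5a* value of mutant 2 (436) was above that of control 2 (430). Of the 12 pan-neuronal genes, 11 were higher at an unadjusted p of 0.05 and their sums were 1449 to 2004 in controls and 2237 to 4794 in mutants, whose part in the *Ret* and *Chrna3* values was not tested. Of the 6 glial genes tested, 3 were higher, with sums of 477 to 599 in controls and 628 to 727 in mutants. Of the 6 vagal sensory genes tested, 3 were higher as well, with sums of 1398 to 1609 and 1891 to 2079. *Piezo2* made up most of these sums, at 1179 to 1262 in controls and 1379 to 1536 in mutants. Chosen after their values were seen, *Slc17a6* was 0 to 8.92 in controls and 39.3 to 127 in mutants, and *P2rx3* was 16.1 to 21.0 and 41.3 to 164. Of the 6 log2 fold changes of this list, 5 were above 0 and 1 below. No gene of the pan-neuronal, glial and vagal sensory lists passed limma's adjusted test, and none of them was at 0 in all 6 libraries.

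In the Sox9 experiment none of the 6 tested genes passed an adjusted p of 0.05 in limma, where 0% of 14293 genes passed. At an unadjusted p of 0.05, *Hand2* was lower and none was higher, against 2.81% and 1.08% of all genes. No gene of the 8 had groups that did not overlap, against 8.78% of all genes. None of the 6 log2 fold changes was above 0, against 50.7% over all genes, and their median was −0.51, beside 0.0013. Control 1 held the highest value of 6 of the 8 genes and mutant 3 the lowest of 6. The pan-neuronal sums were 2934 to 3730 in controls and 3824, 1489 and 1514 in mutants, so that mutant 1 was above the controls and mutants 2 and 3 below them. With 3 libraries against 3, an exact two-sided permutation test of a single gene cannot go below p = 0.1.

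The wider autonomic program was read from a list of related genes. Of a further 30 autonomic genes, 20, 22 and 20 were tested in the *Vangl1/2*, Dermo1 and Sox9 experiments, and none passed limma's adjusted test. At an unadjusted p of 0.05, none was higher or lower in *Vangl1/2* mutants, where 12% and 8.56% of all genes were. In Dermo1 mutants 7 of 22 were higher and 2 lower, against 5.42% and 4.76% of all genes. In Sox9 mutants 5 of 20 were lower and none higher, against 2.81% and 1.08%. Their median log2 fold changes were 0.09, 0.23 and −0.37.

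*Slc5a7* and *Isl1* were among the 3 listed genes with the smallest p-values in the Dermo1 experiment. *Slc5a7*, the choline transporter of cholinergic neurons, had 23.0, 20.1 and 27.7 normalized counts in controls and 47.4, 118 and 68.9 in mutants, with no overlap. Its log2 fold change was 1.60 ± 0.31, with adjusted p-values of 0.189 in limma and 0.00170 in DESeq2. *Isl1*, a LIM homeodomain factor of peripheral neurons, was 93.2 to 114 in controls and 135 to 230 in mutants, at 0.72 ± 0.19. *Chrnb4*, the partner subunit of *Chrna3*, was 2.01 to 13.9 in controls and 15.0 to 21.8 in mutants, at 1.30 ± 0.57, or 0.59 without control 2. None of these 3 passed limma's adjusted test.

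*Slc18a2* and *Ddc* work beside *Th* and *Dbh* in amine synthesis and storage. *Slc18a2*, the vesicular monoamine transporter, had log2 fold changes of 0.12 ± 0.26, −0.08 ± 0.13 and −0.38 ± 0.14 in the *Vangl1/2*, Dermo1 and Sox9 experiments. *Ddc*, the decarboxylase between *Th* and *Dbh*, gave −0.09 ± 0.15, 0.07 ± 0.13 and −0.05 ± 0.12. Among autonomic genes of the Sox9 experiment, the 3 with the smallest p-values included *Slc18a2* and *Insm1*, a factor of neuronal and endocrine precursors. *Insm1* was 25.8 to 29.9 normalized counts in controls and 15.4 to 19.5 in mutants, at −0.63 ± 0.24. Its controls and mutants did not overlap, and the limma adjusted p was 0.9999.

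Genes of early neural crest were read from a list of 12, of which 10 were tested in each experiment. At an unadjusted p of 0.05, 1 of the 10 was higher and none lower in *Vangl1/2* mutants, against 12% and 8.56% of all genes. None was called in Dermo1 mutants, where 5.42% of all genes were higher and 4.76% lower. The same held for Sox9 mutants, against 1.08% and 2.81%. *Sox10*, the factor of migrating crest and its glia, gave log2 fold changes of 0.29 ± 0.45, 0.25 ± 0.31 and −0.38 ± 0.32. The nearest to the threshold in *Vangl1/2* mutants were *Itga4* (0.59 ± 0.23), an integrin subunit, *Erbb3* (0.33 ± 0.15), the neuregulin receptor, and *Nr2f1* (0.25 ± 0.11), a nuclear receptor. Their limma adjusted p-values were 0.233, 0.250 and 0.253, and without control 2 they were 0.000379, 0.0120 and 0.0307. That fit without control 2 passed 6183 of 14303 genes. With the trend over gene length removed, *Itga4* was 0.22. Levels within the list differed widely. In *Vangl1/2* libraries *Itga4* was 449 to 967 normalized counts, *Erbb3* 506 to 846 and *Nr2f1* 476 to 659. There *Sox10* was 51.5 to 145 and *Foxd3*, another crest factor of the list, 10.1 to 32.6. Which cells of the lung gave the reads of these genes was not tested.

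Across the 18 libraries the genes differed in how closely they varied together. *Ret* and *Chrna3* were close, with r = 0.82 (rho 0.81), and with 0.75, 0.90 and 0.82 within the *Vangl1/2*, Dermo1 and Sox9 experiments. The enzymes *Th* and *Dbh* correlated at 0.87 (rho 0.81), at 0.77 without Sox9 control 1, and at 0.82, 0.74 and 0.95 within the experiments. *Tfap2b* went with *Dbh* (0.86) and *Gata3* (0.87), and these were 0.76 and 0.81 without Sox9 control 1. *Ret* gave −0.08 with *Hand2*, where the 3 experiments differed in sign (0.41, −0.51 and 0.37 within them), and 0.17 with *Gata3*. *Phox2a* stood between, at 0.76 with *Chrna3* and 0.78 with *Dbh*. These values describe log2 levels centred within each experiment, share libraries and their depth, and carry no test.

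**Figure D3:**
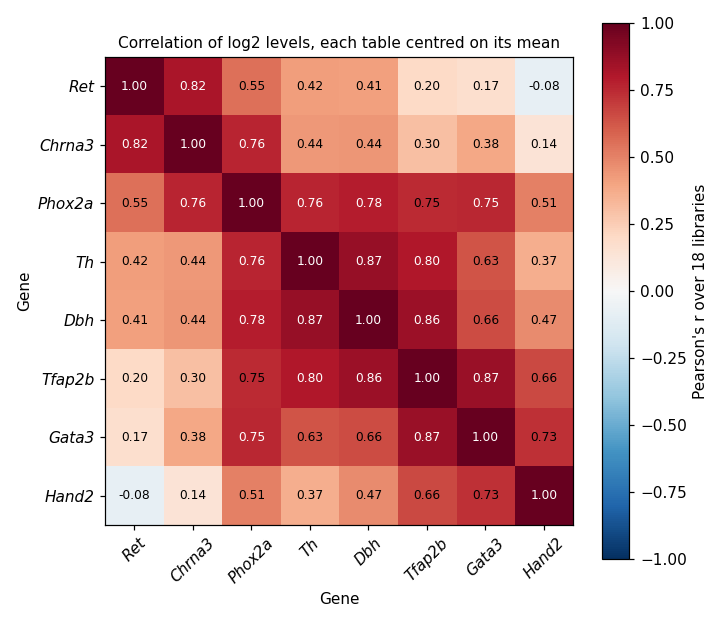
Pearson's r over 18 libraries between the 8 genes (both axes list genes), from log2 normalized counts centred within each experiment, with red for positive and blue for negative values. Ret and Chrna3 are at 0.82, Th, Dbh and Tfap2b form a block at 0.80 to 0.87, and Ret with Hand2 is at −0.08.

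*Ret* and *Chrna3* also ran close to general neuronal genes. *Ret* correlated with the sum of the 12 pan-neuronal genes at r = 0.82 (rho 0.82), and at 0.76, 0.97 and 0.90 within the *Vangl1/2*, Dermo1 and Sox9 experiments. *Chrna3* did so at 0.78 (rho 0.82), and at 0.62, 0.97 and 0.92 within them. Without the 2 libraries farthest from the median sum these were 0.76 and 0.69. *Chrna3* was as close to the sum of 8 glial genes, at 0.83 (rho 0.88). *Phox2a* correlated with the pan-neuronal sum at 0.60, *Th* at 0.47, *Dbh* at 0.40 and *Tfap2b* at 0.22. *Hand2* gave −0.01 with it, and 0.50, −0.40 and 0.62 within the experiments. Sox9 control 1, which was highest for *Th*, *Dbh* and *Tfap2b*, had a pan-neuronal sum of 3114, between those of controls 2 and 3 (2934 and 3730). *Pnmt*, *Star*, *Cyp11a1* and *Nr5a1*, genes of the adrenal gland, summed to 100.1 in that library and to 107 to 127 in the other 5, and *Star* alone made 89.2 of the former. Chosen after their values were seen, *Chga*, a protein of amine storage granules, was 245 in Sox9 control 1 and 7.04 to 34.9 in the other 5 libraries, and *Slc6a2*, the noradrenaline transporter, was 67.4 and 5.86 to 16.96.

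**Figure D4:**
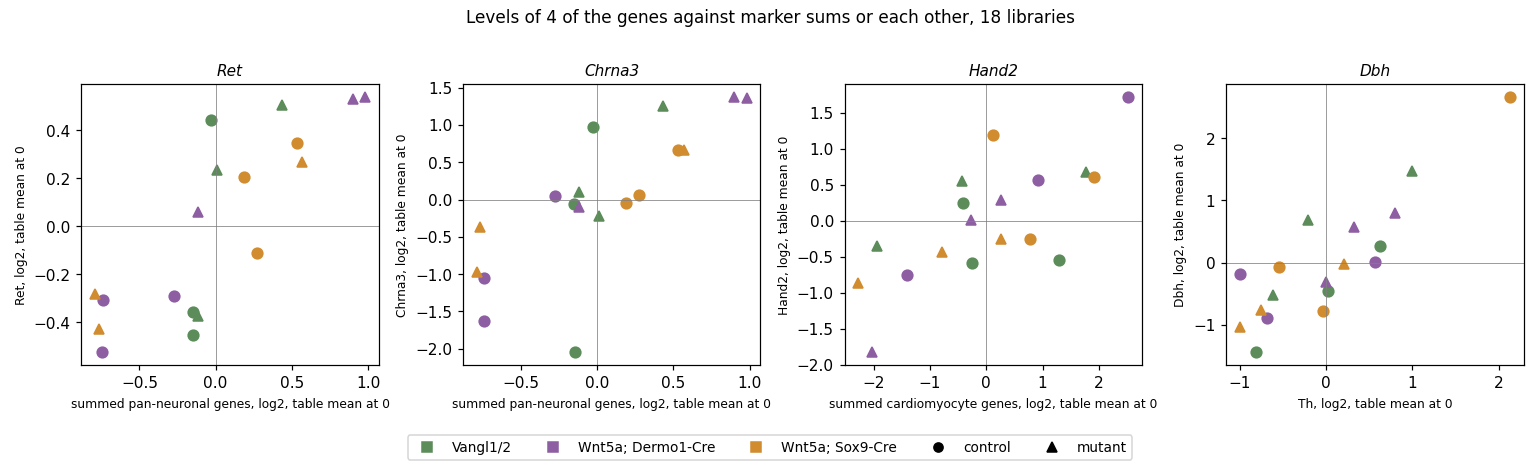
Log2 levels centred within each experiment in 18 libraries, for Ret and Chrna3 against the summed pan-neuronal genes, Hand2 against the summed cardiomyocyte genes, and Dbh against Th, with colors for experiments, circles for controls and triangles for mutants. Dermo1 mutants 2 and 3 lie at the upper right for Ret and Chrna3, and Sox9 control 1 lies alone at the upper right for Dbh and Th.

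Among 13980 genes compared over all 18 libraries, the 3 most like *Ret* were *Apba1* (r = 0.93), *Scn9a* (0.93) and *Ptpro* (0.92). Those most like *Chrna3* were *Tlx2*, *Trim67* and *Spock3*, each at 0.93. *Hand2* was matched best by *Dsc2* (0.89), *Atp1b1* (0.87) and *Sphkap* (0.86), and *Gata3* by *Fzd8* (0.91), *Diras2* (0.88) and *Mab21l2* (0.86). For *Phox2a* they were *Scn3b* (0.86), *N4bp2l1* (0.85) and *Chga* (0.85). *Dbh* was matched best by *Rad9b* (0.86), *Cav1* (0.83) and *Pik3cb* (0.82), and these were 0.77, 0.79 and 0.84 without Sox9 control 1.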

How the data were processed

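RNA was extracted from embryonic lungs and sequenced on Illumina instruments. The submitters' processing notes name Trim Galore, HISAT2, featureCounts and DESeq2 with mm10, without versions. The strand setting of counting is not given in the sources used here. To make the deposited signal of each library, called normalized counts here, the authors divided its gene counts by 1 size factor. Whole reads came back for 100% of values within 0.01 reads. The authors' means, log2 fold change and p-value columns were not used. Symbols were placed with GENCODE M21.

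Each experiment was fitted separately with limma (3.58.1, R 4.3.3, mean-variance trend) on log2(value + 1), for genes with at least 10 normalized counts in 3 of 6 libraries, with Benjamini-Hochberg adjustment over all tested genes at 0.05. A pseudocount of 1 understates the change of low genes. Alternatives used edgeR (4.0.16) and DESeq2 (1.42.0) on recovered reads, TMM scaling, other pseudocounts, no filter, a replicate block, a length trend and each library left out. The fits were tested on simulated data. Chi-square values per degree of freedom between replicates of 3.79 to 74.2 showed no repeated library. No label says that libraries came from separate animals, so p-values measure only the spread between these libraries. Text on single genes covers all 8, *Chrnb4*, *Ddc*, *Slc18a2* and *Sox10*, the 3 genes of the autonomic and crest lists with the smallest p in each experiment, and the 3 most correlated genes, apart from some genes not reported here. The genes and lists were chosen with earlier results of these data known.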

Additional observations from a re-analysis of the deposited data

Results flagged for a closer look

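*Phox2a*, *Th*, *Dbh* and *Chrnb4* had fitted differences of opposite sign in the Dermo1 and Sox9 experiments. For each of them all 3 Dermo1 mutants lay above the control mean and all 3 Sox9 mutants below theirs, and the difference between the experiments was not tested. This reading against the control mean was chosen after the values were seen. *Phox2a* had log2 fold changes of 0.74 in the Dermo1 and −0.58 in the Sox9 experiment. *Th*, from fits without a filter, had 0.74 and −1.03. *Dbh* had 0.71 and −1.21, where Dermo1 mutant 3 exceeded the control mean by less than 0.01 normalized counts. *Chrnb4* had 1.30 and −0.38. Beside these values, Sox9 control 1 was the highest of 6 libraries for *Phox2a*, *Th* and *Dbh*. Against controls 2 and 3 alone, mutant 1 lay above both for *Th* (10.7 against 8.96 and 5.99) and *Dbh* (17.6 against 9.96 and 17.0) and between them for *Phox2a* (26.4 against 16.9 and 26.9), so the Sox9 direction of these 3 genes in every mutant rests on control 1. For *Chrnb4*, Sox9 mutant 1 (15.6) was just under the control mean of 15.9 and above controls 1 and 2 (12.9 and 12.9). Its Sox9 direction in every mutant thus rests on control 3 (21.9). The experiments also differed in stage (E12.5 and E13.5).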

How the results depend on the processing

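Of 574 alternative values over 41 results for named genes, 542 kept their direction and were not seen to cross the threshold. Another 12 newly passed it, 6 (all of *Vangl2*) no longer passed it and 14 turned sign. The 542 include values to which DESeq2 gave no adjusted p, such as all of its values in the *Vangl1/2* experiment. For these only the direction was compared. In the *Vangl1/2* experiment limma passed 1 gene (*Vangl2*), DESeq2 11 and the replicate block 0. *Vangl2* is not among the 11, since DESeq2 gave it a log2 fold change of −1.99 ± 0.21 (SE) but no adjusted p. Of the 7 tested genes 2 had an unadjusted p under 0.05 in DESeq2 and 2 under the block, against 1 in limma. Over all 14303 genes DESeq2 put 1578 higher and 1450 lower at that p, and the block 1766 and 1244. In the Dermo1 experiment 2 genes passed in limma, 101 in DESeq2 and 16 under the block. For the Sox9 experiment limma passed 0 genes (557 at an unadjusted p of 0.05), edgeR 0 and DESeq2 9. Of its 6 tested genes 2 had an unadjusted p under 0.05 in DESeq2 and 2 under the block, against 1 in limma. Over all 14293 genes DESeq2 put 68 higher and 257 lower at that p, and the block 231 and 530. The cause of these differences was not tested. Same-numbered libraries correlated at −0.22 to 0.30 and differently numbered ones at −0.28 to 0.34. With 3 libraries in a group these values cannot tell whether the replicate numbers pair libraries, so the block is given for its counts alone. Within the *Vangl1/2* experiment 1714 genes were higher and 1224 lower at an unadjusted p of 0.05 in limma, against 1335 and 1557 in edgeR and 885 and 986 with the length trend removed.

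Leaving out 1 library gave 0 to 6183 genes in the *Vangl1/2* experiment (6183 without control 2), 0 to 54 in the Dermo1 experiment (54 without mutant 1) and 0 to 13 in the Sox9 experiment (13 without mutant 1). Of the 7 tested genes, 0 to 5 then had an unadjusted p under 0.05 in the *Vangl1/2* experiment. The 5 were without control 2, where 3601 genes were higher and 3631 lower of 14303. In the Sox9 experiment 1 to 3 of the 6 tested genes did, where 94 to 637 genes were higher and 221 to 854 lower of 14293. The log2 fold changes that turned sign ranged, in the *Vangl1/2* experiment, from −0.0797 to 1.43 for *Chrna3*, −0.32 to 0.38 for *Chrnb4*, −0.22 to 0.0132 for *Ddc*, −0.18 to 0.28 for *Slc18a2* and −0.0371 to 0.76 for *Sox10*. In the Dermo1 experiment they ranged from −0.0311 to 0.17 for *Ddc*, −0.48 to 0.10 for *Gata3* and −0.0546 to 0.63 for *Sox10*. The Sox9 values ranged from −0.11 to 0.0437 for *Ddc* and −0.55 to 0.17 for *Gata3*. *Th* and, in both *Wnt5a* experiments, *Tfap2b* were fitted without a filter alone, since too few reads fell on them.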
